A study of Mus musculus with 8 samples.

Results

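The cytosolic ribosomal protein genes are the genes for the proteins of the 2 subunits of the cytoplasmic ribosome. They were taken from the deposited tables by symbol, as Rpl or Rps followed by a number with at most a trailing a, x, y or l, together with Rplp0, Rplp1, Rplp2 and Rpsa. The rule found 84 of 23699 listed genes, 51 of the large (60S) and 33 of the small (40S) subunit. Of these, 80 had a mean of at least 1 FPKM (sequenced fragments scaled by transcript length and library size) over all libraries and entered the tests. Those left out, Rpl3l, Rpl10l, Rpl39l and Rps4y2, were at or near 0. Their highest value in any library was 0.261 FPKM, for Rpl3l in control siRNA replicate 1.

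RNA was sequenced from 3T3-L1 cells, an established mouse fibroblast line that can become adipocytes, collected as preadipocytes 2 days after they reached confluence. One group of 4 libraries came from cells given a pool of 3 Stealth siRNAs (modified duplexes) against Fto, and the other group of 4 from cells given 3 non-targeting siRNAs. Both pools were used at 40 nM for 24 h with a lipid transfection reagent before confluence, so every library carries the effects of transfection, and a pool gives no separate value for any 1 siRNA. Fto encodes a demethylase of RNA and DNA, and its siRNAs lower rather than remove its mRNA. Whether replicates were separate cultures is not stated in the labels, and p-values therefore reflect the spread among these 8 libraries alone, which may be technical.

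Each ribosome carries 1 copy of nearly every ribosomal protein, built around ribosomal RNA in the nucleolus, and growing cells keep the mRNAs of these proteins among their most abundant. Many of these mRNAs begin with a C followed by a run of pyrimidines, the 5′ terminal oligopyrimidine (TOP) motif, through which mTORC1 and the RNA-binding protein LARP1 control their translation and stability. Several ribosomal proteins have duties outside the ribosome. Rpl5 and Rpl11, with 5S ribosomal RNA, bind the p53 ubiquitin ligase MDM2 when ribosome assembly fails, and the protein of Rpl22 binds RNA, including, in mouse, the mRNA of its own paralog Rpl22l1.

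Sequence around the annotated transcription start was read for pyrimidine runs. Each line gives 20 bases before and 10 bases from the RefSeq start (GRCm38.p6), read on the gene's strand, with its longest run of C and T in capitals. Rpl4 and Rpl39, and the paralogs Rpl22l1 and Rpl22, are shown because they differed between the groups in opposite directions, and Rpl5 and Rps6 for their roles in MDM2 binding and mTORC1 signalling.
Rpl4, chr9:64173367-64173396, plus strand: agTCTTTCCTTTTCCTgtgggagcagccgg
Rpl22l1, chr3:28805488-28805517, plus strand: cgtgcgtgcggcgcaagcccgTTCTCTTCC
Rpl39, chrX:37085213-37085242, minus strand: CCCCCCCTaagctccgcctctagcgacttc
Rpl22, chr4:152324416-152324445, plus strand: atcagcgctgCTTCTggaatgttccagctc
Rpl5, chr5:107900508-107900537, plus strand: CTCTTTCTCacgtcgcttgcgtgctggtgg
Rps6, chr4:86857358-86857387, minus strand: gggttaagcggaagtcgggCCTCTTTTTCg
The window of Rpl22l1 ends with a run of 9 pyrimidines, while the longest run around the Rpl22 start shown has 5. Such windows could be read for 62 of the 84 genes. A run of at least 8 pyrimidines (C or T, on the gene's strand) occurred in 28 of them (45.2%), against 1222 of 8040 other tested genes with a promoter entry (15.2%). A run of at least 8 purines, read in the same windows, occurred in 6.5% of the ribosomal protein genes and 14.8% of the others. A run in this window is a description of the letters and does not show where transcripts of these cells begin.

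Fto mRNA was low in every library given its siRNAs. Libraries of Fto siRNA cells held 13.8, 10.7, 12.3 and 11.6 FPKM of it, against 54.6, 55.4, 56.2 and 55.2 FPKM in those of control siRNA cells. The groups did not overlap, and the log2 fold change was -2.15 (SE 0.063, limma adjusted p = 7.3e-08), with an exact two-sided permutation p of 0.0286, the smallest that 70 arrangements allow. The libraries held 18.9 to 24.4 M fragments, as implied by their deposited intervals. Preadipocyte and fibroblast markers summed to 5885 to 6355 FPKM in Fto siRNA libraries and 5515 to 5958 FPKM in control siRNA libraries, with 7 of 8 at a mean of 1 FPKM or more. Of these, 3 rose and 2 fell, and their part in the results was not tested. Mature adipocyte markers summed to 54.2 to 65.9 FPKM in Fto siRNA libraries and 51.6 to 83.2 FPKM in control siRNA libraries, with Ucp1 at 0, and 3 of 8 reached a mean of 1 FPKM. Macrophage and leukocyte markers summed to 8.76 to 10.1 FPKM in Fto siRNA libraries and 7.86 to 9.74 FPKM in control siRNA libraries, with Emr1 at 0 and 2 of 6 reaching 1 FPKM. Endothelial markers summed to at most 0.571 FPKM and muscle markers to at most 2.22 FPKM in any library, with Ckm and Myod1 at 0. In bulk RNA, fewer cells of a type and less of an mRNA per cell cannot be told apart.

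Ribosomal protein mRNAs were abundant, and as a group they differed little between Fto siRNA and control siRNA cells. Rpl39 and Rpl22 rose and Rpl4, Rpl22l1, Rpl27, Rpl5 and Rpl21 fell, by log2 fold changes between -0.36 and 0.25, and the other 73 tested genes did not pass the test. These 7 calls were 8.75% of the 80 tested genes, while 19.3% of all 11398 tested genes were called, 6.97% higher and 12.3% lower. Calls are from limma on log2(FPKM + 0.5) at an adjusted p under 0.05, with p-values adjusted by Benjamini-Hochberg across the whole table. The median log2 fold change was 0.007 for the ribosomal protein genes and -0.017 for all tested genes, and 44 ribosomal protein genes lay above 0 and 36 below. Of all 11398 tested genes, 5097 lay above 0 and 6301 below. Without adjustment, 4 ribosomal protein genes were higher and 12 lower at p under 0.05. Over all tested genes the same cut gave 1425 higher and 2272 lower. The groups did not overlap for 1 gene that was higher in Fto siRNA cells, Rpl39, and for 7 that were lower, Rpl4, Rpl22l1, Rpl27, Rpl5, Rpl7a, Rps15 and Rpl7. Over all tested genes, 9.08% were higher and 15.1% lower without overlap.

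All 7 calls were 60S genes, out of 48 tested, and none of the 32 tested 40S genes was called by limma on the deposited values. After quantile normalization Rps20 was called lower, though its log2 fold change on the deposited values was 0.006. Rps15 was called lower when each library was centred on the ribosomal protein list. On the deposited values before adjustment, Rps27a was higher and Rps15 lower at p under 0.05, 1 gene each way. The median log2 fold change was -0.01 for 60S genes and 0.01 for 40S genes, and whether the subunits differ was not tested. The counts moved with the library left out. Without control siRNA replicate 3, 7 genes were higher (Rpl22, Rpl31, Rpl35, Rpl37, Rpl37a, Rpl39 and Rplp1) and 2 lower (Rpl4 and Rpl22l1), with a median log2 fold change of 0.05. Leaving out any other single library gave 1 or 2 higher and 2 to 4 lower.

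**Figure D1:**
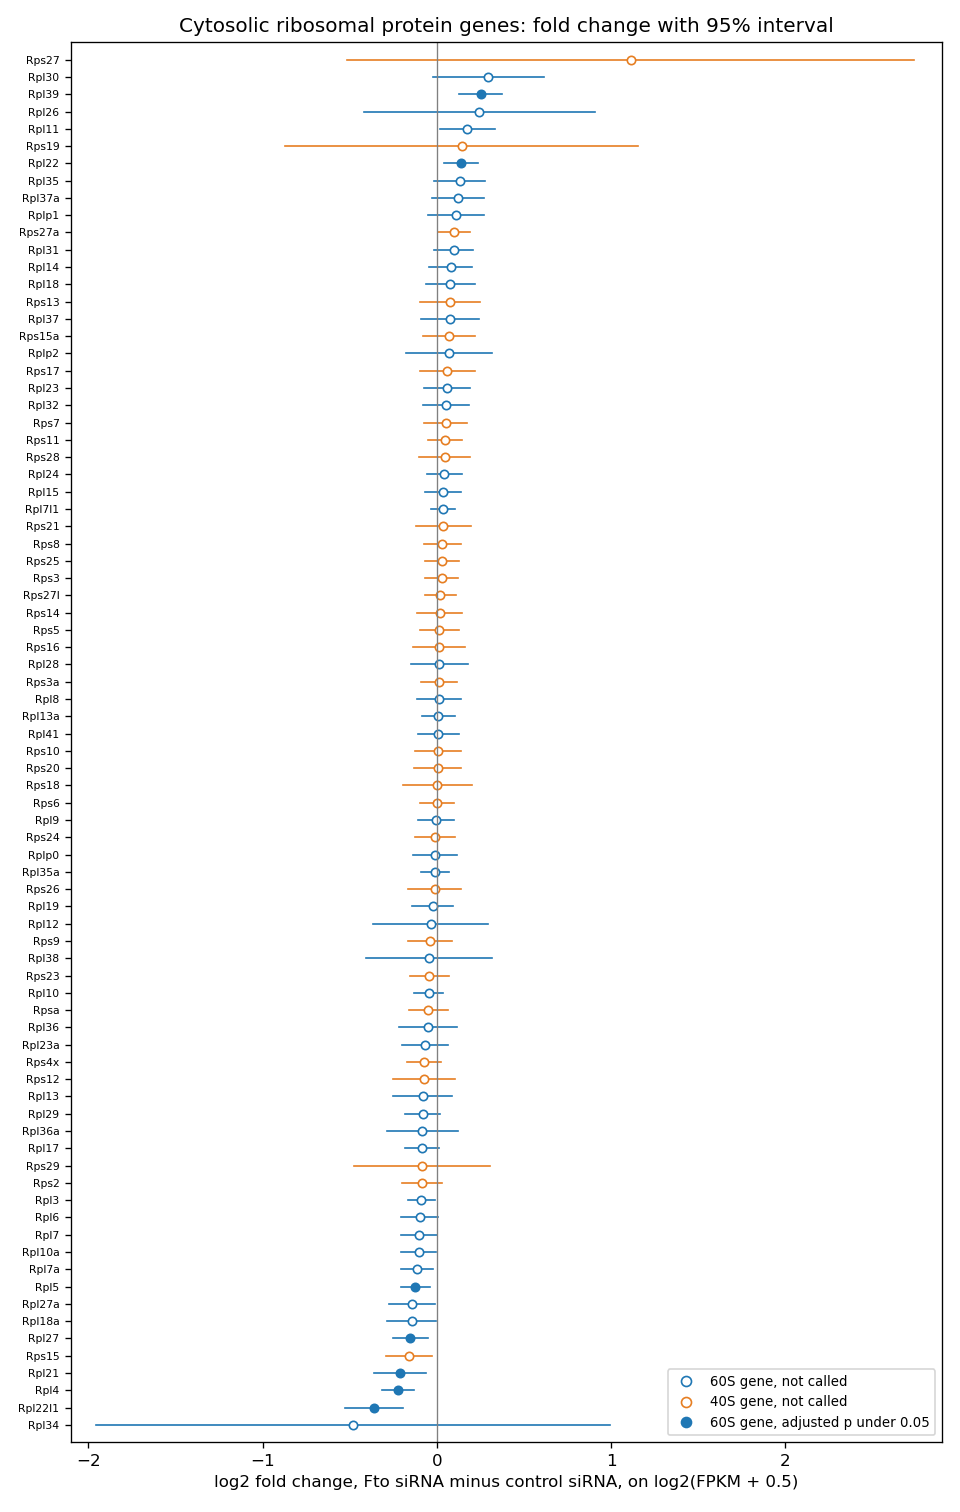
Log2 fold change (Fto siRNA minus control siRNA, on log2(FPKM + 0.5)) of the 80 tested ribosomal protein genes, with 95% limma intervals over 4 libraries per group. Most genes lie close to 0, filled points mark the 7 called genes, and Rps27, Rpl34, Rps19 and Rpl26 have the widest intervals.

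For most uncalled genes the interval of the difference was narrow. Of the 73, 56 had a 95% interval within 1.2-fold either way, 68 within 1.5-fold and 70 within 2-fold. The 3 whose interval reached 2-fold or more were Rps27, Rpl34 and Rps19. Leaving aside genes that varied by 2-fold or more between single libraries, the uncalled log2 fold changes ran between -0.16 (Rps15) and 0.30 (Rpl30).

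Rpl4 and Rpl39, both lining the tunnel through which the new protein chain leaves the ribosome, moved in opposite directions. Rpl4 had 941, 922, 970 and 937 FPKM in Fto siRNA libraries, against 1056, 1102, 1159 and 1087 FPKM in control siRNA libraries. Every Fto siRNA library was below every control siRNA library, and the log2 fold change was -0.22 (SE 0.042, limma adjusted p = 0.0052). Rpl39 had 1340, 1263, 1295 and 1427 FPKM in Fto siRNA libraries, against 1059, 1213, 1117 and 1088 FPKM in control siRNA libraries. Here every Fto siRNA library was above every control siRNA library, with a log2 fold change of 0.25 (SE 0.056, limma adjusted p = 0.0116). The other 6 genes of the tunnel and its exit port, Rpl17, Rpl19, Rpl23a, Rpl26, Rpl31 and Rpl35, were not called, so the list counted 1 higher and 1 lower of 8. In the deposited mm9 loci, Rpl4 (chromosome 9, 64021194 to 64026369) holds Snord16a and Rpl39 (chromosome X, 34622515 to 34625179) overlaps Snora69. These are overlaps of whole loci, introns included, and whether they touch exons or the values of either gene was not tested.

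Rpl22 and Rpl22l1, a pair of paralogs that can stand in for each other in the 60S subunit, also moved in opposite directions. Rpl22l1 had 75.3, 72.8, 85.0 and 84.3 FPKM in Fto siRNA libraries, against 93.1, 116, 105 and 94.7 FPKM in control siRNA libraries. All 4 Fto siRNA libraries were the lower ones, with a log2 fold change of -0.36 (SE 0.076, limma adjusted p = 0.0088), the largest fall among the called ribosomal protein genes. Rpl22 had 174, 182, 183 and 190 FPKM in Fto siRNA libraries, against 159, 168, 176 and 159 FPKM in control siRNA libraries. The groups overlapped, since control siRNA replicate 3 exceeded Fto siRNA replicate 1, and the log2 fold change was 0.14 (SE 0.043, limma adjusted p = 0.0460). The Rpl22 call was lost in 6 of 8 fits that left out 1 library, with adjusted p between 0.0143 and 0.123.

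The ratio of the pair separated the groups, as Rpl22l1 alone already did. Rpl22l1 stood at 0.433, 0.40, 0.464 and 0.443 of the Rpl22 level in Fto siRNA libraries, and at 0.584, 0.690, 0.598 and 0.597 of it in control siRNA libraries. The means were 0.435 ± 0.0268 in Fto siRNA cells and 0.617 ± 0.0488 in control siRNA cells (SD, n = 4 each), with no overlap. An exact two-sided permutation test gave p = 0.0286, the smallest possible, and 0.0429 after Benjamini-Hochberg adjustment over the 3 paralog pairs that were expressed; this ratio was tested after the values of both genes were known. The coding sequences of the pair were identical at 67.5% of aligned positions and shared no word of 50 bases. FPKM is per length of transcript, so a ratio compares levels, but 65.6% of the 50-base words of the Rpl22l1 transcript also occur in transcripts of other annotated genes, against 5.2% for Rpl22. How the authors' quantification assigned those reads was not tested.

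**Figure D2:**
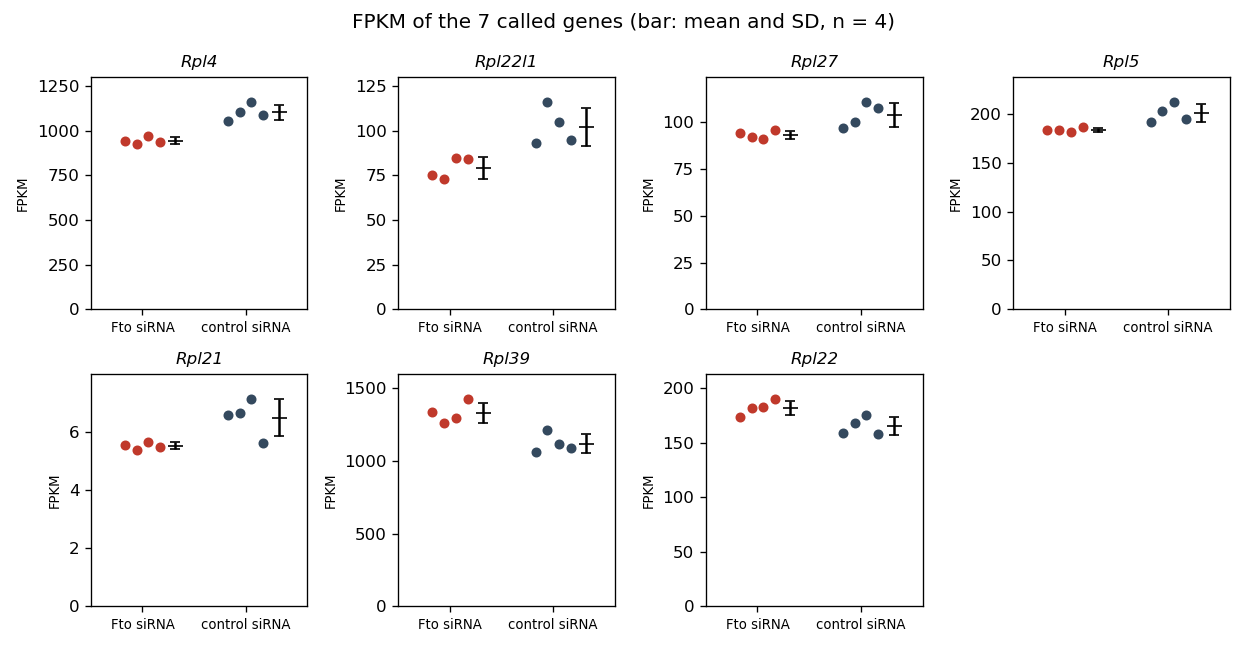
FPKM of the 7 called genes in each library, Fto siRNA left of control siRNA, with mean and SD (n = 4) beside the points. Rpl4, Rpl22l1, Rpl27, Rpl5 and Rpl39 do not overlap between groups, while Rpl21 and Rpl22 do.

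Rpl5 and Rpl11, whose proteins form the 5S particle with 5S ribosomal RNA and bind MDM2, differed in their outcome. Rpl5 had 184, 183, 182 and 187 FPKM in Fto siRNA libraries, against 191, 203, 212 and 195 FPKM in control siRNA libraries. It fell without overlap, by a log2 fold change of -0.12 (SE 0.038, limma adjusted p = 0.0445), but kept the call in only 1 of 8 fits that left out a library (adjusted p 0.0332 to 0.118). Rpl11 had 270, 236, 255 and 221 FPKM in Fto siRNA libraries, against 223, 195, 214 and 237 FPKM in control siRNA libraries. Its groups overlapped and its log2 fold change of 0.18 did not pass (SE 0.071, limma adjusted p = 0.115). The Rpl5 locus (mm9 chromosome 5, 108329547 to 108338024) overlaps Fam69a, and 93.8% of the 50-base words of its transcript occur in transcripts of other annotated genes.

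Rpl27 and Rpl21, both proteins of the 60S subunit, completed the falls. Rpl27 had 94.1, 91.8, 91.1 and 95.8 FPKM in Fto siRNA libraries, against 96.9, 99.8, 111 and 108 FPKM in control siRNA libraries. Its groups did not overlap, though the highest Fto siRNA and lowest control siRNA values were close, and the log2 fold change was -0.15 (SE 0.045, limma adjusted p = 0.0399). Rpl21, the lowest of the tested genes, had 5.57, 5.39, 5.66 and 5.47 FPKM in Fto siRNA libraries, against 6.59, 6.66, 7.13 and 5.61 FPKM in control siRNA libraries. Control siRNA replicate 4 lay among the Fto siRNA values, and the log2 fold change was -0.21 (SE 0.067, limma adjusted p = 0.0495). Each of these calls held in 1 of 8 fits that left out a library, with adjusted p of 0.0209 to 0.106 for Rpl27 and 0.0101 to 0.120 for Rpl21. By contrast, Rpl4, Rpl22l1 and Rpl39 were called in all 8.

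An earlier search of these data had picked GACCTTA and ACCTTAA because genes with these words in the 3′ UTR had fallen, so their presence supports nothing here. Read on the transcript strand in GENCODE M21 transcripts, either word occurred in the 3′ UTR of 3 of 79 tested ribosomal protein genes with a UTR (3.8%), against 1129 of 9811 tested genes (11.5%). The 3 genes were Rpl21, Rpl28 and Rps15a, with 3′ UTRs of 1079, 559 and 4728 bases, and only Rpl21 was called. A longer UTR has more room for a word, and the shares were not adjusted for UTR length. The lower share is therefore not read as a lack of these words in ribosomal protein genes. The site of Rpl21, on chromosome 5, is shown with 10 bases on either side and the first word in capitals; the other word overlaps it by 6 of its 7 bases.
Rpl21, 3′ UTR site: gagtctaatgGACCTTAagtggtctct

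The P stalk proteins, Rplp0, Rplp1 and Rplp2 with Rpl12, recruit the GTPase factors of translation, and none of the 4 was called. Rplp1 had the highest mean level of all members, with 2342, 2112, 2354 and 2397 FPKM in Fto siRNA libraries, against 1979, 2068, 2439 and 2059 FPKM in control siRNA libraries. Control siRNA replicate 3 was the highest of all 8 libraries, and the other 3 control siRNA libraries were below every Fto siRNA library (log2 fold change 0.11, SE 0.072, limma adjusted p = 0.321). Without control siRNA replicate 3, the Rplp1 log2 fold change was 0.18 with limma adjusted p = 0.0335. Rplp0 had 1149, 1118, 1121 and 1146 FPKM in Fto siRNA libraries and 1065, 1140, 1281 and 1090 FPKM in control siRNA libraries, a log2 fold change of -0.01 with a 95% interval of -0.14 to 0.12. Rplp2 had 344, 263, 299 and 355 FPKM in Fto siRNA libraries and 270, 273, 366 and 295 FPKM in control siRNA libraries, with overlapping groups.

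Rps6, Rpsa and Rps25, of the 40S subunit, were not called. Rps6, the substrate of S6 kinase downstream of mTORC1, had 309, 298, 309 and 317 FPKM in Fto siRNA libraries and 294, 301, 333 and 305 FPKM in control siRNA libraries. Its log2 fold change was 0.0004 with a 95% interval of -0.10 to 0.10. Rpsa, also known as the laminin receptor, had 429, 415, 418 and 438 FPKM in Fto siRNA libraries and 411, 426, 483 and 442 FPKM in control siRNA libraries, an interval of -0.16 to 0.06. Rps25, needed for translation from some viral internal entry sites, had 289, 289, 306 and 313 FPKM in Fto siRNA libraries and 279, 300, 309 and 287 FPKM in control siRNA libraries, an interval of -0.07 to 0.13. In all 3 genes the groups overlapped. The 14 listed proteins of the 40S head gave no call by limma, with log2 fold changes of -0.16 to 0.14, and 1 higher and 1 lower when p was left unadjusted (under 0.05).

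Rpl38 and Rpl10a, of the 60S subunit, are linked in other mouse cells to the translation of particular mRNAs. Rpl38 had 505, 341, 331 and 393 FPKM in Fto siRNA libraries and 339, 459, 502 and 323 FPKM in control siRNA libraries. Its libraries spread by more than 1.5-fold within each group, and its interval of -0.40 to 0.32 was correspondingly wide. Rpl10a had 422, 410, 430 and 437 FPKM in Fto siRNA libraries and 430, 449, 494 and 456 FPKM in control siRNA libraries, which gave -0.10 on the log2 scale (limma adjusted p = 0.146). Of the 10 listed genes mutated in human Diamond-Blackfan anaemia, an inherited failure of red cell production, only Rpl5 was called.

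Levels spanned a wide range although 1 copy of nearly every protein is needed per ribosome. Mean FPKM over the 8 libraries ran between 6.01 (Rpl21) and 2219 (Rplp1), with a median of 269; 66 genes reached 100 FPKM, 16 reached 1000 and 8 stayed under 50. After Rplp1 the highest were Rpl32, Rpl41, Rps21 and Rps20. Rpl32 had 1905, 1802, 2059 and 2079 FPKM in Fto siRNA libraries and 1862, 1891, 2009 and 1788 FPKM in control siRNA libraries. Rpl41, which encodes the smallest ribosomal protein, had 1696, 1641, 1623 and 1840 FPKM in Fto siRNA libraries and 1667, 1659, 1780 and 1651 FPKM in control siRNA libraries. Groups overlapped in both. Rps21 had 1682, 1402, 1639 and 1635 FPKM in Fto siRNA libraries and 1437, 1631, 1660 and 1467 FPKM in control siRNA libraries. Rps20 had 1437, 1372, 1480 and 1499 FPKM in Fto siRNA libraries and 1367, 1403, 1621 and 1382 FPKM in control siRNA libraries. These neighbours in the order of levels overlap between libraries, and none of the 4 was called.

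At the low end, after Rpl21, stood Rpl26, Rpl34, Rps29 and Rps27. While 71 of the 80 genes ranged over less than 1.5-fold between the lowest and highest of the 8 libraries, Rps27 ranged over about 20-fold, Rpl34 over 12.1-fold, Rps19 over 3.81-fold and Rpl26 over 3.20-fold. Rps27 had 138, 9.09, 32.1 and 32.8 FPKM in Fto siRNA libraries and 6.89, 8.99, 34.0 and 26.7 FPKM in control siRNA libraries. Its log2 fold change of 1.11, the highest among the tested ribosomal protein genes, came with SE 0.73 and a 95% interval of -0.52 to 2.74. Fto siRNA replicate 1 alone stood above 35 FPKM. Rpl34 had 9.67, 10.8, 14.6 and 15.3 FPKM in Fto siRNA libraries and 8.72, 9.30, 105 and 10.3 FPKM in control siRNA libraries, so 1 control siRNA library stood apart. Without that library its log2 fold change was 0.37, against -0.48 with it, and neither was called (limma adjusted p = 0.0941 and 0.664).

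Rps19 and Rpl26, of the 40S and 60S subunits and both linked to Diamond-Blackfan anaemia in humans, varied in each group. Rps19 had 276, 264, 90.0 and 288 FPKM in Fto siRNA libraries and 244, 75.5, 273 and 252 FPKM in control siRNA libraries. One library of each group held less than 100 FPKM and the other six between 244 and 288. Rpl26 had 20.7, 10.3, 11.8 and 18.1 FPKM in Fto siRNA libraries and 12.5, 6.47, 15.4 and 18 FPKM in control siRNA libraries, and implied only 26.8 to 77.8 fragments per library. Rps29, in the 40S head, had 34.8, 27.4, 30.5 and 41.9 FPKM in Fto siRNA libraries and 32.3, 32.4, 51.8 and 28.5 FPKM in control siRNA libraries. None of these groups separated.

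**Figure D3:**
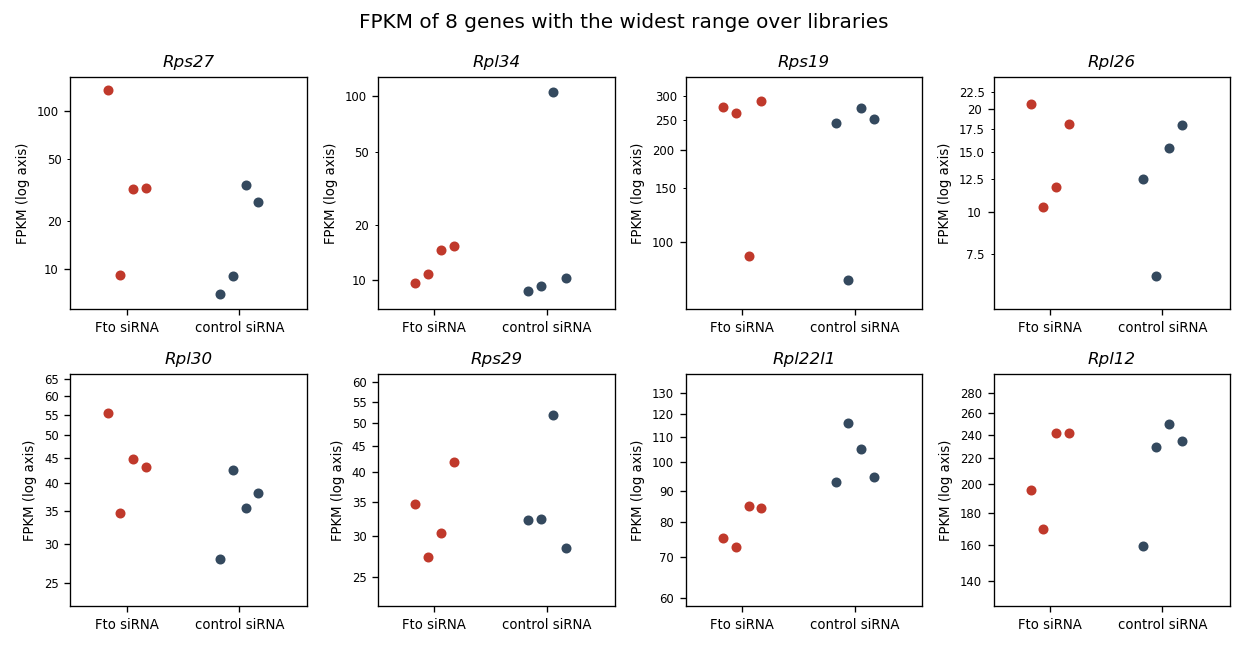
FPKM (log axis) of the 8 ribosomal protein genes with the widest range over libraries, Fto siRNA left of control siRNA, 1 point per library. Single libraries stand apart for Rps27, Rpl34, Rps19 and Rps29, and Rpl22l1 alone among the 8 has groups that do not overlap.

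Many ribosomal protein genes have processed copies elsewhere in the genome, and this was measured as the share of the 50-base words of each transcript that also occur in the transcripts of other genes (GENCODE M21, both strands). Over 79 tested genes the share had a median of 53.6% and ran between 0 and 98.6%, and 46 genes reached 50%. Rps27 was highest at 98.6%, while Rpl26 had 71.3%, Rps19 53.6% and Rpl34 37.9%. The Rps27 locus overlaps Gm9846, that of Rpl26 overlaps Gm15772 and that of Rpl34 overlaps Rpl34-ps1. The median share was 36.9% for the 8 genes with a mean under 50 FPKM. It was 66.8% for the 49 genes of 50 to 500 FPKM and 38.7% for the 22 genes of 500 FPKM or more. Whether shares follow levels was not tested. Each share also depends on the transcript read for the gene. The long transcripts read for Rps20 (3706 bases) and Rps15a (5179 bases) had shares of 7.6% and 6.4%. Whether the transcripts read are those expressed in these cells was not tested. The share of Rpl4 and of Rpl39 was 16.5% each. Whether signal moved between genes and their copies was not tested, so the levels and changes of genes with a high share are uncertain.

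**Figure D4:**
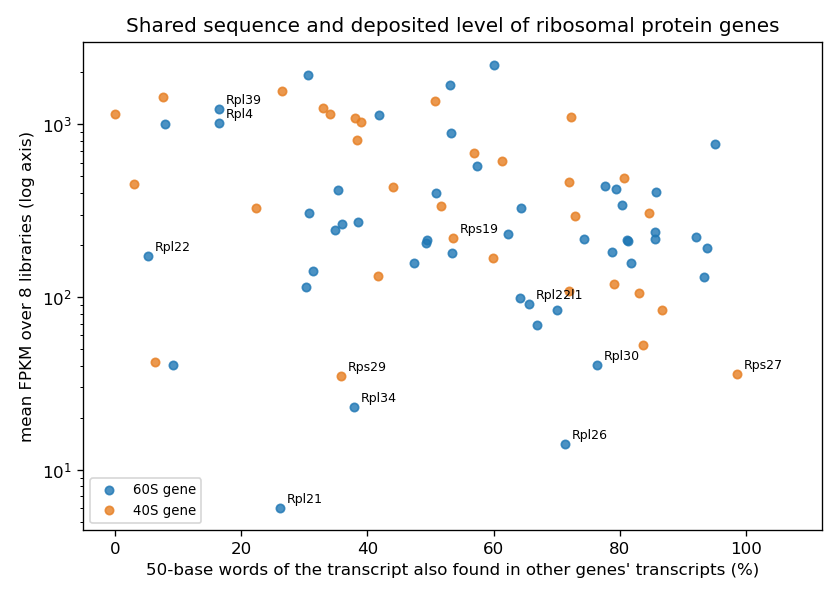
Share of the 50-base words of each transcript that occur in transcripts of other genes (percent) against mean FPKM over 8 libraries (log axis), 1 point per tested ribosomal protein gene. Rps27 lies at the right edge with 98.6%, while Rpl4 and Rpl39 lie to the left, at 16.5%, with means above 1000 FPKM.

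The paralogs carried in the set differed in whether they were expressed at all. Rpl3l, of muscle, had 0.0559, 0, 0.257 and 0.223 FPKM in Fto siRNA libraries and 0.261, 0, 0 and 0 FPKM in control siRNA libraries, while its partner Rpl3 averaged 230 ± 6.04 FPKM in Fto siRNA cells and 245 ± 7.52 FPKM in control siRNA cells (SD, n = 4 each). Rpl39l and Rpl10l, both known from the testis, were at 0 except for 0.0731 FPKM of Rpl39l in control siRNA replicate 4. Their coding sequences are 85.3% identical to Rpl39 and 84.8% to Rpl10, whose levels were 1332 ± 71.2 and 218 ± 2.96 FPKM in Fto siRNA cells and 1119 ± 66.5 and 225 ± 10.1 FPKM in control siRNA cells. Rps4y2 was listed at 0 in every library, while Rps4x averaged 1077 ± 29.4 FPKM in Fto siRNA cells and 1134 ± 47.3 FPKM in control siRNA cells.

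Rps27l and Rpl7l1 were expressed. Rps27l, a p53-responsive paralog, had 331, 323, 319 and 343 FPKM in Fto siRNA libraries and 310, 332, 340 and 316 FPKM in control siRNA libraries, a steady level. The deposited values of Rps27 were lower in all 8. However, 98.6% of the 50-base words of Rps27 also occur in other genes, so which paralog is expressed more is uncertain. The ratio of Rps27l to Rps27 followed the spread of Rps27, with 2.41, 35.5, 9.96 and 10.5 in Fto siRNA libraries and 45.0, 37.0, 9.99 and 11.9 in control siRNA libraries (exact two-sided permutation p = 0.200). Rpl7l1 had 40.6, 40.0, 40.8 and 42.1 FPKM in Fto siRNA libraries and 40.2, 38.8, 39.7 and 40.6 FPKM in control siRNA libraries. Its partner Rpl7 had 840, 843, 883 and 872 FPKM in Fto siRNA libraries and 896, 900, 1001 and 902 FPKM in control siRNA libraries. Neither gene was called, though Rpl7 alone was lower in every Fto siRNA library, while Rpl7l1 changed little (log2 fold change 0.04). Their ratio, chosen after the data were seen, averaged 0.0476 ± 0.00102 in Fto siRNA cells and 0.0432 ± 0.00250 in control siRNA cells (SD, n = 4 each, exact permutation p = 0.0286, 0.0429 adjusted over the 3 pairs). That separation is not independent of the Rpl7 values and adds no further finding.

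The ribosomal protein genes also moved together between single libraries, on a scale that did not follow the groups. For each library, the median over the 80 genes of log2(FPKM + 0.5) minus its mean over the 8 libraries was 0.0037, -0.07, 0.0008 and 0.04 in Fto siRNA libraries, against -0.07, -0.0036, 0.14 and -0.04 in control siRNA libraries. Control siRNA replicate 3 stood highest. It was above the gene's own mean for 74 of 80 genes, the highest control siRNA library for 70 and the highest of all 8 libraries for 51. Fto siRNA replicate 2 and control siRNA replicate 1 stood lowest, each above the mean for only 10 of 80 genes. Both subunits shifted alike in control siRNA replicate 3, by 0.15 for 60S and 0.13 for 40S genes.

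The median of all tested genes moved far less, by 0.03 in control siRNA replicate 3, and mitochondrial ribosomal protein genes moved by 0.12 there. After the libraries were rescaled by the median ratio of all tested genes, the shift of the cytosolic genes in that library was still 0.11. Summed over the members, FPKM came to 38891, 36445, 38338 and 39632 in Fto siRNA libraries and 36123, 37937, 41798 and 36959 in control siRNA libraries. As a share of all FPKM this was 8.40, 7.99, 8.29 and 8.36% in Fto siRNA libraries and 7.94, 8.21, 8.62 and 8.04% in control siRNA libraries. The mean share was 8.26 ± 0.186% in Fto siRNA cells and 8.20 ± 0.299% in control siRNA cells (SD, n = 4 each), or 8.06 ± 0.132% without control siRNA replicate 3 (n = 3). With all 8 libraries the difference between the group means was smaller than either SD. Without control siRNA replicate 3 the difference was larger than both SDs. That library had the highest share of all, so leaving it out had to widen the difference. No other library was left out for this share, and no group difference is concluded from it.

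**Figure D5:**
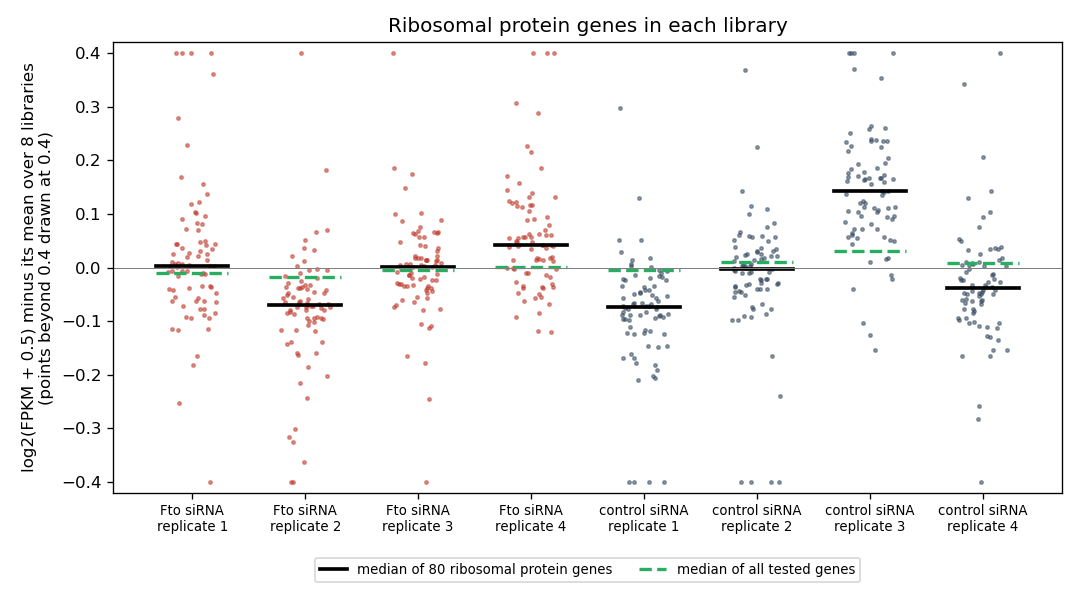
Log2(FPKM + 0.5) of each of the 80 tested ribosomal protein genes minus its mean over the 8 libraries, by library, with the median of these genes (black) and of all tested genes (green, dashed). Control siRNA replicate 3 stands highest at 0.14, and Fto siRNA replicate 2 and control siRNA replicate 1 lowest at -0.07.

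Genes that build or use ribosomes were counted from lists, beside the background of 6.97% higher and 12.3% lower. Of 99 ribosome biogenesis factors, 8 rose and 7 fell. The calls with the lowest p were falls, of Imp3, a part of the small subunit processome, to 43.2 ± 2.10 FPKM in Fto siRNA cells against 55.5 ± 3.46 FPKM in control siRNA cells (SD, n = 4 each; -0.36 on the log2 scale, limma adjusted p = 0.0011), and of the processome part Utp15 (-0.29), the 60S export adaptor Nmd3 (-0.30) and the Rps26 escort Tsr2 (-0.35). Of 14 proteins that bind or carry ribosomal proteins, Heatr3, which carries Rpl5, rose by 0.19, Kpnb1 rose by 0.12 and Ipo7 fell by 0.21 on the log2 scale. For RNA polymerase I and its factors, 1 of 14 was called, Rrn3, the initiation factor that brings the polymerase to ribosomal DNA, which rose by 0.14 on the log2 scale. For RNA polymerase III, which makes 5S ribosomal RNA and tRNA, 3 of 22 rose and 4 fell, among them Brf2 (0.17), Polr3g (-0.66) and Gtf3c2 (-0.20), given as log2 fold changes. The loci of Tsr2 and Ipo7 overlap Fgd1 and Snora23 as whole spans, and whether this affects their values was not tested.

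Fau, which encodes a ribosomal protein fused to a ubiquitin-like protein, the 40S protein gene Gnb2l1 (RACK1) and Rpl36al are ribosomal protein genes whose symbols fall outside the rule. None of these 3 was called by limma, and Rpl36al was higher at an unadjusted p under 0.05. Of 26 other mRNAs listed as having a TOP motif, 1 rose and 1 fell. These were Hnrnpa1, at 16.7 ± 1.02 FPKM in Fto siRNA cells and 10.6 ± 1.29 FPKM in control siRNA cells (SD, n = 4 each; log2 fold change 0.65, limma adjusted p = 5.2e-04), and Eif3e (-0.16, adjusted p = 0.0397), and the Hnrnpa1 locus overlaps Gm10052 and Gm5643. Of 44 initiation factors 1 rose, Eif2s2 (0.18), and 4 fell, Eif3k (-0.17), Eif1a (-0.13), Mcts1 (-0.15) and Eif3e. Of 13 elongation and release factors none was called by limma, and 1 was higher and 0 lower before adjustment (p under 0.05).

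Regulators of ribosomal protein synthesis were counted in the same way. Of 38 genes around mTORC1, LARP1 and S6 kinase, 1 rose, the mTORC1 inhibitor Sesn2 (0.22, limma adjusted p = 0.0335), and 1 fell, Tia1 (-0.18), which binds TOP mRNAs under stress. In the MYC network, of 11 genes, Myc rose by 0.18 while its antagonist Mxi1 fell by 0.68 and Mlx, a partner of the glucose-sensing branch, by 0.11 on the log2 scale. Among 17 genes of p53, MDM2 and the response to ribosomal stress, 6 rose and 1 fell, with a median log2 fold change of 0.12. The 6 include Sesn2, already counted around mTORC1, and the fall was of Btg2 (-0.21, limma adjusted p = 0.016). Cdkn1a, which arrests the cell cycle, rose by 0.39 on that scale (limma adjusted p = 4.3e-04), Gadd45a by 0.40, Trp53inp1 by 0.27 and Aen by 0.20. Some of these p53 targets were already known to have risen here, so their count is a description, and the Gadd45a locus overlaps E230016M11Rik and that of Mlx overlaps Psmc3ip. Of 76 mitochondrial ribosomal protein genes, 1 rose and 1 fell (2.63%), Mrpl50 (0.14) and Mrps15 (-0.13). Among the calls named from these lists, those of Eif3k, Eif1a, Mcts1, Eif3e, Sesn2, Mlx, Ipo7, Kpnb1, Mrps15 and Mrpl50 were each lost in 3 to 8 of the 8 fits that left out a library, with limma adjusted p up to 0.114. The other named calls held in all 8, leaving aside Btg2, whose calls in those fits are not reported.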

How the data were processed

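Total RNA of 8 libraries, 4 with Fto siRNA and 4 with control siRNA, was sequenced by the authors. Per the submitters' processing notes, TopHat2 2.0.11, Cufflinks 2.2.1 and the mm9 build were used. The deposited values are FPKM with intervals and a status per gene, per the file headers. Depth was derived from the width of those intervals, read here as counting error alone. Whether they also widen with uncertain assignment of reads was not tested, so implied fragments of single genes are approximate. The sources used here do not say whether strand was kept.

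Genes averaging 1 FPKM or more over the libraries were tested on log2(FPKM + 0.5), which understates changes of low genes, with limma 3.58.1 in R 4.3.3 (trend in the prior variance, two-sided, Benjamini-Hochberg over 11398 genes, threshold 0.05). The members, the lists, the alternatives and the rule for named genes were chosen with earlier results of these data known. That rule names Fto, called members, the 5 highest and 5 lowest levels, paralogs with their partners, 12 members of known role and up to 4 called genes per further list; some genes it names are not reported here. Paralog ratios, start windows, shared 50-base words and the 1.5-fold and 2-fold ranges were chosen after the data were seen. Loci are as deposited (mm9), counted from 1. Start windows came from RefSeq (GRCm38.p6) and transcripts from GENCODE M21 (GRCm38), 1 per gene. On 3 simulated sets of this comparison with 200 changed genes among 11398, the test recovered 56 to 66% of changes of 0.3 and 94 to 95% of changes of 0.6 (log2), with 7 to 12 calls among unchanged genes. The simulated noise was independent between genes, with no shift shared within a library. These rates therefore need not hold for the real libraries, where such a shift was seen. Alternatives were other pseudocounts, filters and scalings, a replicate block, and each library left out. Python 3.11.15 with pandas 2.3.3 and matplotlib 3.10.9 served for the rest.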

Additional observations from a re-analysis of the deposited data

Results flagged for a closer look

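In groups of 4 libraries, 8 of the 70 groups examined held 1 library far from the other 3 (Dixon's test at 95%). For independent groups chance gives about 1 in 20. These groups are genes read in the same 8 libraries, so they are not independent and no excess is concluded. Control siRNA replicate 3 was the library apart for Rpl41 (1780 FPKM), Rps20 (1621 FPKM), Rps29 (51.8 FPKM), Rpl34 (105 FPKM) and Rpl7 (1001 FPKM), the highest of its group each time. Fto siRNA replicate 2 was the lowest of its group for Rps21 (1402 FPKM). For Rps19, Fto siRNA replicate 3 was lowest in its group (90.0 FPKM) and control siRNA replicate 2 in its own (75.5 FPKM).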

How the results depend on the processing

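Under 17 alternatives Rpl4 and Rpl22l1 were called every time and Rpl39 in 16, missing only with no filter on low values (limma adjusted p = 0.0526); Rpl22 held in 9, Rpl27 and Rpl5 in 7 and Rpl21 in 3. The main counts were 2 ribosomal protein genes higher and 5 lower. With no filter there were 0 higher and 2 lower, both 60S (2). Quantile normalization gave 4 higher and 8 lower (60S 11, 40S 1), and the spread of the list's median between libraries was 0.0746 instead of 0.215. With a replicate block there was 1 higher and 2 lower (60S 3). Same-numbered libraries correlated by 0.07, -0.04, -0.19 and -0.09, which showed no pairing by number but cannot exclude it. Centring each library on the list, added after the data were seen, gave 5 higher and 3 lower (40S 1), 464 higher and 685 lower over all genes, and 23 calls in the further lists, against 45. Leaving out 1 library gave 1 to 7 higher, 2 to 4 lower, 3 to 9 in the 60S and 0 in the 40S subunit, 27 to 55 calls in the further lists, 550 to 941 higher and 992 to 1433 lower over all genes, a median of -0.02 to 0.05 and a spread of 0.112 to 0.220. The lowest spread was without control siRNA replicate 3, and so was the count of 7. Over all genes 794 were higher and 1401 lower, but median-ratio scaling gave 1086 and 1218 and quantile normalization 1086 and 1207. None of the 36 called genes followed by name changed sign under any alternative, while 12 of the 24 uncalled ones did. The causes were not tested. Rpl26 had the fewest implied fragments of the tested ribosomal protein genes, 26.8 in its lowest library, against a median of 2757 over their lowest libraries. Whether depth or the assignment of reads set this was not tested.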
